A study of Mus musculus with 18 samples.

Results

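Genes of the interleukin 6 (IL-6) family were followed in hepatic stellate cells (HSC), the vitamin A-storing pericytes of the liver, and in intrahepatic cholangiocyte organoids (ICO), which are grown from bile duct epithelium. The 10 genes were chosen by symbol from the 35667 genes of the mouse count table, and all 10 were present. They are the ligands Il6 (ENSMUSG00000025746), Il11 and Lif, the receptor subunits Il6ra, Il11ra1, Osmr, Lifr and Il6st, the transcription factor Stat3 and the feedback inhibitor Socs3. All 10 passed the low-count filter among the HSC libraries, and all but Il6 passed it among the ICO libraries.

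Cytokines of this family signal through the shared receptor subunit gp130, which is encoded by Il6st. IL-6 and IL-11 first bind their own subunits, encoded by Il6ra and Il11ra1, whereas LIF joins gp130 to the LIF receptor and oncostatin M joins it to the subunit encoded by Osmr. The complex activates Janus kinases and STAT3, and STAT3 induces Socs3, whose product blocks the receptor. In liver, IL-6 is best known for driving the acute phase response of hepatocytes, and IL-11 is known as a product of activated stellate cells and fibroblasts.

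The 6 groups held 3 libraries each and were made from bulk RNA by the Smart-seq2 method. They were HSC kept for 7 days in Matrigel with ICO (co-cultured HSC), HSC kept for 7 days in Matrigel without ICO (HSC alone), HSC kept for 7 days on plastic, HSC taken at day 0 directly after isolation, ICO sorted from the co-culture (co-cultured ICO) and ICO kept for 7 days in Matrigel by themselves (ICO alone). Healthy wild-type mice gave the HSC, the ICO carried the fluorescent tag dTomato, and the Matrigel cultures were sorted at day 7, per the series design text. The labels give 1 growth medium, a mixture of DMEM with FBS and AdvDMEM/F12 that holds HGF, RSPO3, FGF10, EGF, gastrin, nicotinamide, N-Acetylcysteine, N2 and B27, so cultures with and without partner cells shared these growth factors. Whether the 3 libraries of each group stem from different mice or wells is not recorded, so the p-values speak only of the variation among these libraries, part of which may be technical.

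Total estimated counts ranged from 6907479 to 22158674 per library. All 13 stellate markers averaged at least 1 CPM (counts scaled to library size) in each HSC group. Cholangiocyte transcripts were also present in HSC libraries from Matrigel: an organoid share, estimated from 16 cholangiocyte genes, was 27.9%, 15% and 41.9% in replicates 1, 2 and 3 of co-cultured HSC and 32.5%, 13.1% and 3.31% in HSC alone, against at most 0.221% on plastic and at day 0. How this RNA came into the libraries labelled as HSC without ICO was not tested, so HSC alone is used here as the name of that label. Transcripts of 14 macrophage markers summed to 126 to 199 CPM in co-cultured HSC, 2425 to 3334 CPM in HSC alone, 101 to 479 CPM on plastic and 893 to 940.2 CPM at day 0. Transcripts of 12 hepatocyte markers summed to no more than 311 CPM in later HSC libraries, against 16132 to 16967 CPM at day 0, and those of 10 endothelial markers to no more than 56.9 CPM, against 1056 to 1078 CPM. In bulk RNA, fewer cells of a type and less RNA per cell cannot be told apart.

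The sequences upstream of 4 of the genes are shown because the ligand genes Il6, Il11 and Lif were all higher in co-cultured HSC than in HSC alone and because Socs3 is a textbook target of STAT3. Each is the 250 bases before an annotated transcript start, 5' to 3' on the strand of the gene, from the RefSeq promoter table of build GRCm38.p6, whereas the counts rest on GRCm39 per the submitters' processing notes. The regions are chr5:30012864-30013113 on the plus strand for Il6, chr7:4778142-4778391 on the minus strand for Il11, chr11:4257318-4257567 on the plus strand for Lif and chr11:117969367-117969616 on the minus strand for Socs3. Capitals mark matches, on either strand, to the AP-1 motif TGAGTCA in Il6, Il11 and Lif, to an NF-kB motif (GGGAT followed directly by TTTCC) in Il6 and to the STAT motif TTCNNNGAA in Socs3.
Il6: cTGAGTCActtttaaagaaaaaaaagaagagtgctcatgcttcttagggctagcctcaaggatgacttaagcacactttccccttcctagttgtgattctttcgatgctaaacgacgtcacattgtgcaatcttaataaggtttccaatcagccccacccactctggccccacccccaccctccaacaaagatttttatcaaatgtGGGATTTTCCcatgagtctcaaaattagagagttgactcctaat
Il11: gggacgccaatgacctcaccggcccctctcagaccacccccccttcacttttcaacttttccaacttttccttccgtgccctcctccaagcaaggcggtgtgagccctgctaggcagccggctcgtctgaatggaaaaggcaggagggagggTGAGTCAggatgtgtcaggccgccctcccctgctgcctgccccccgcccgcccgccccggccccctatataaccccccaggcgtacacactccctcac
Lif: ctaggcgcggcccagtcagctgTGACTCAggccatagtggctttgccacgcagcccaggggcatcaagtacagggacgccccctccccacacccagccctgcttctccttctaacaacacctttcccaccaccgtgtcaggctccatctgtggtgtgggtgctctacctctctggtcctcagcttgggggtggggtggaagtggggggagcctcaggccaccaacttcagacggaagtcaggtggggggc
Socs3: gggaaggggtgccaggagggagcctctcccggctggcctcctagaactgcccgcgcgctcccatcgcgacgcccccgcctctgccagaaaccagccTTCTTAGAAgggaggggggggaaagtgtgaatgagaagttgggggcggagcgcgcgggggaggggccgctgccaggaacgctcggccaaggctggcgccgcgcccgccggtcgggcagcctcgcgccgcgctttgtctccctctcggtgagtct

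The AP-1 letters lie 249 to 243 bases before the Il6 start, 98 to 92 before this Il11 start and 228 to 222 before the Lif start. They occur in the windows of 3 of 13 starts of the 10 genes, and in 4.46% of 32851 mouse starts. The NF-kB letters lie 44 to 35 bases before the Il6 start and occur in 1 of the 13 windows and in 0.0639% of all. The STAT letters lie 154 to 146 bases before the Socs3 start and occur in 1 of the 13 windows and in 7.02% of all. No matches in these windows overlapped, and the other Il11 start had none of the 3 motifs. A match describes the letters of the window only.

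The ligands had different orders of level across the groups. All levels are CPM, scaled with TMM factors over the 18 libraries, and are compared between groups for 1 gene and not between genes. Il6 averaged 7.46 ± 2.58 CPM in co-cultured HSC, 0.262 ± 0.182 in HSC alone, 10.3 ± 2.45 on plastic and 1.46 ± 0.326 at day 0 (SD, n = 3 each). It was close to the detection limit in the organoids, with 3 counts over the 3 co-cultured ICO libraries and 0 counts over the ICO alone, where 3 counts would correspond to 0.0773 CPM. The plastic and co-cultured HSC libraries overlapped for Il6, and both lay above every other library.

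Il11 was highest in co-cultured HSC, at 182 ± 70.5 CPM, followed by plastic HSC at 17.9 ± 2.89 CPM and ICO alone at 4.12 ± 1.99 CPM (SD, n = 3 each). It averaged 1.71 ± 0.402 CPM in co-cultured ICO and 1.38 ± 0.748 CPM in HSC alone, 2 groups that overlapped, and 0.264 ± 0.0533 CPM at day 0. The other neighbours in this order did not overlap. Lif averaged 18.3 ± 4.11 CPM in co-cultured HSC, 5.11 ± 3.27 in HSC alone, 26.7 ± 4.44 on plastic, 0.163 ± 0.155 at day 0, 18 ± 3.36 in co-cultured ICO and 22.6 ± 4.88 in ICO alone. The 4 highest groups for Lif overlapped with their neighbours, while HSC alone and day 0 HSC lay apart below them.

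**Figure D1:**
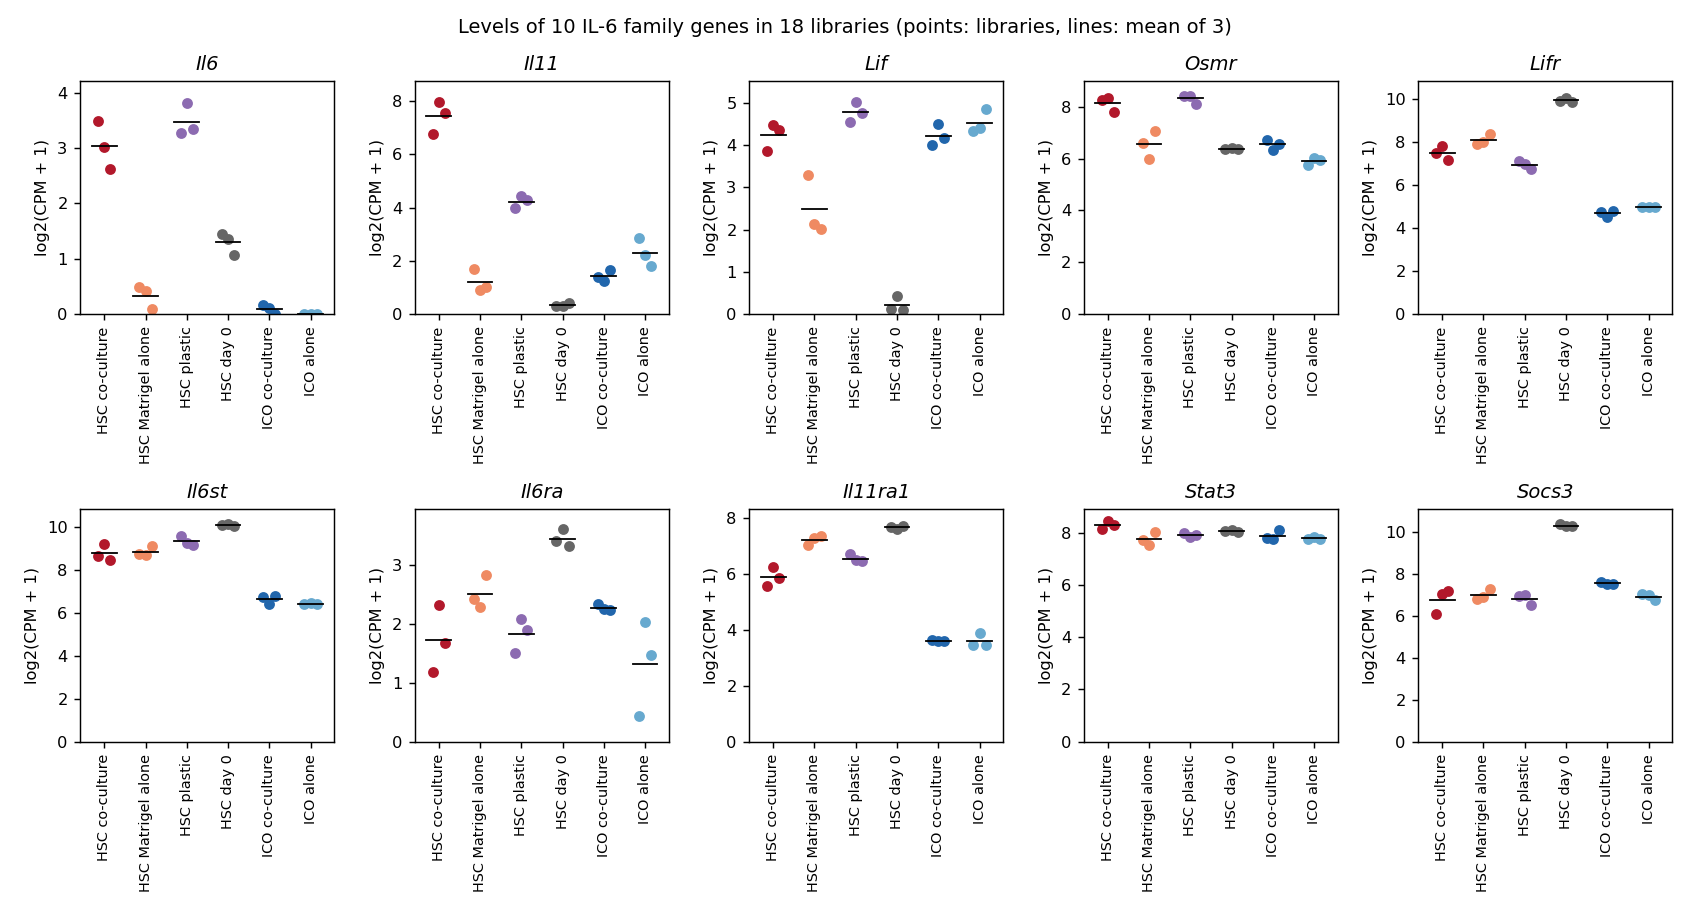
Levels of the 10 genes, 1 panel each, on a vertical axis of log2(CPM + 1). Points are libraries in the order of their replicate numbers, and black lines are means of 3 libraries. Il11 is highest in co-cultured HSC (mean 182 CPM), Lifr, Il6st, Il6ra, Il11ra1 and Socs3 are highest at day 0, and Il6 is near 0 in both organoid groups.

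Each receptor gene had its highest mean in an HSC group. Lifr and Il6st averaged 978 ± 68.5 and 1104 ± 40.8 CPM at day 0, and every HSC library of any group lay above every ICO library for both genes. Il11ra1, the IL-11 binding subunit, averaged 202 ± 9.1 CPM at day 0 and 11.2 CPM in both organoid groups, which overlapped. Its reads may have been divided with those of its near-identical copy Il11ra2, so values of Il11ra1 are uncertain to that extent. Il6ra stayed low in every group, between 1.74 ± 1.38 CPM in ICO alone and 9.95 ± 1.12 CPM at day 0 (SD, n = 3 each). Osmr, the oncostatin M subunit, was highest on plastic at 323 ± 37 CPM and in co-cultured HSC at 287 ± 53.3 CPM, and these 2 groups overlapped.

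Stat3 spanned the narrowest range of the 10 genes relative to its level. It averaged 320.1 ± 34.2 CPM in co-cultured HSC, 221 ± 39.9 in HSC alone, 243 ± 15.7 on plastic, 272 ± 9.28 at day 0, 240.5 ± 32.5 in co-cultured ICO and 224 ± 7.94 in ICO alone. Socs3 averaged 1268 ± 45.6 CPM at day 0, and its next highest group was co-cultured ICO at 188 ± 7.31 CPM. The other 4 groups had Socs3 means between 112 and 128 CPM, and neighbours among them overlapped.

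HSC from the co-culture were first compared with HSC alone, a group that also differed in macrophage transcripts and itself held organoid RNA. All 3 ligand genes and Osmr were higher in co-cultured HSC, Il11ra1 was lower, and the shared subunit Il6st did not pass the test. Of the 10 genes, 5 were higher and 2 lower at an adjusted p under 0.05 by edgeR's quasi-likelihood test, against 31.1% of the 17020 genes tested that were called in either direction (17.3% higher and 13.8% lower). The median fitted change was 0.28 (log2) over the 10 genes and 0.03 over all genes tested.

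Il11, the stellate cell and fibroblast cytokine, had 108, 249 and 189.8 CPM in co-cultured HSC, against 2.24, 0.88 and 1.03 CPM in HSC alone. All 3 co-cultured libraries lay far above all 3 libraries of HSC alone. The fitted change was 7.09 ± 0.38 (log2 ± SE), a 136-fold difference, with an adjusted p of 1.01e-07. It was called under all 15 alternatives, with changes between 6.82 and 8.22. The organoid share multiplied by the ICO level came to at most 0.442% of Il11 in co-cultured HSC, against 59.7%, 61.6% and 13.3% in HSC alone.

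Il6, the acute phase cytokine, had 10.2, 7.04 and 5.11 CPM in co-cultured HSC, against 0.401, 0.33 and 0.056 CPM in HSC alone. The groups did not overlap, and the libraries of HSC alone held 12 Il6 counts in all. The fitted change was 4.87 ± 0.52 (log2, adjusted p = 1.43e-05), a 29.2-fold difference.

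Lif had 13.7, 21.5 and 19.7 CPM in co-cultured HSC, against 8.89, 3.42 and 3.03 CPM in HSC alone. The groups did not overlap, although replicate 1 of HSC alone lay well above the other two. The fitted change was 1.9 ± 0.38 (log2, adjusted p = 0.0021), and it was 2.55 without replicate 1 of HSC alone (adjusted p = 5.01e-05). The organoid share multiplied by the ICO level amounted to 36.8%, 12.6% and 38.3% of Lif in co-cultured HSC and to 82.7%, 86.8% and 24.7% in HSC alone. With that part subtracted, the fitted change in Lif was 3.45, a value that rests on small remainders in replicates 1 and 2 of HSC alone. The Lif change was called under all 15 alternatives.

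**Figure D2:**
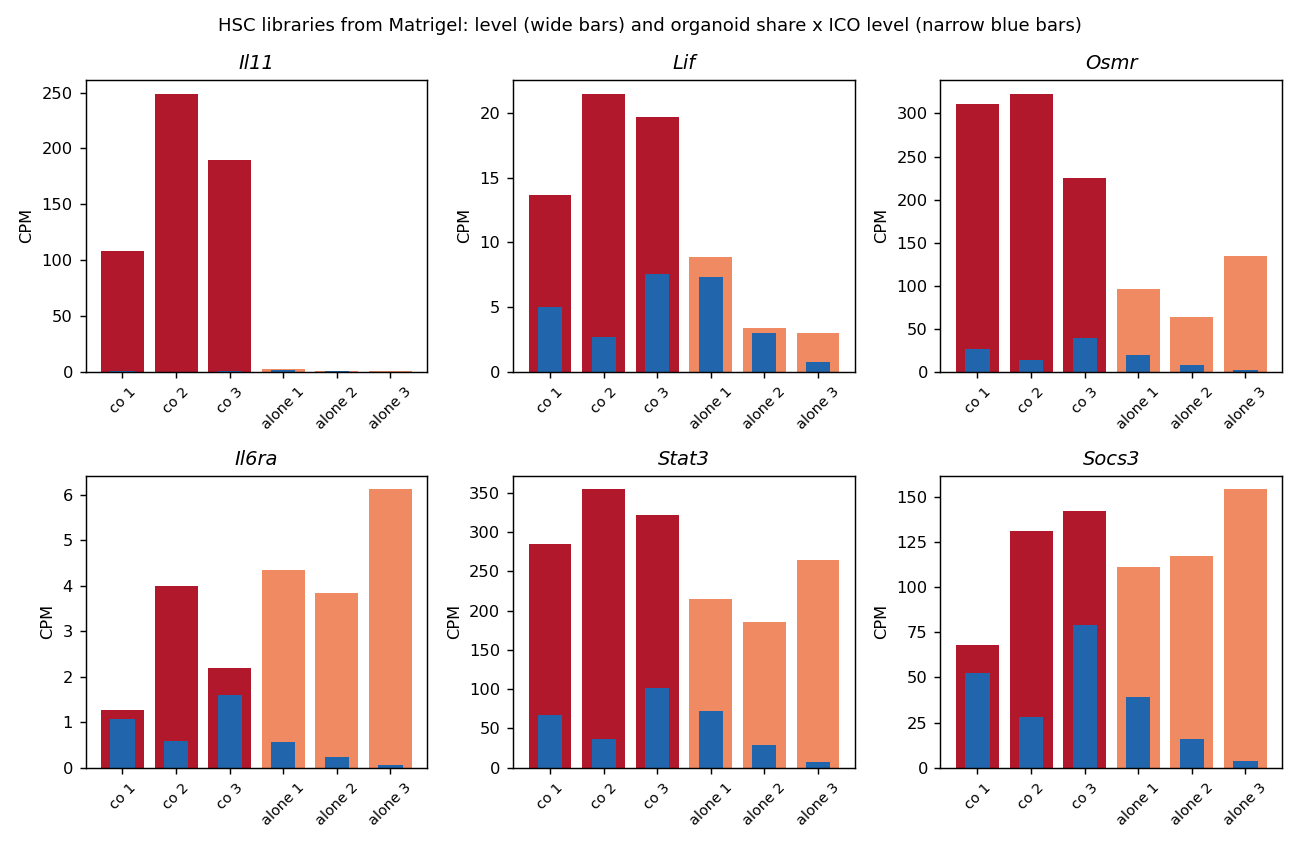
Level of 6 genes in each HSC library from Matrigel (wide bars, CPM), with co-cultured libraries on the left and libraries of HSC alone on the right. Narrow blue bars are the organoid share of the library multiplied by the mean ICO level of the same culture. The blue part is at most 0.442% of Il11 in co-culture, and it is 82.7% and 86.8% of Lif in replicates 1 and 2 of HSC alone.

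Among the receptor genes, Osmr had 311, 323 and 225 CPM in co-cultured HSC, against 96.3, 63.2 and 134 CPM in HSC alone. No co-cultured library came near the range of HSC alone, and the fitted change was 1.59 ± 0.23 (log2, adjusted p = 0.000195). Il11ra1 had 46.3, 74.6 and 56.6 CPM in co-cultured HSC, against 130.4, 156 and 161 CPM in HSC alone. It was lower in every co-cultured library, by a fitted change of -1.29 ± 0.16 (adjusted p = 3.78e-05). The cytokine Il11 and its binding subunit Il11ra1 thus differed in opposite directions.

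Lifr had 181, 225 and 144 CPM in co-cultured HSC, against 240.3, 251 and 327 CPM in HSC alone. The groups did not overlap, and the fitted change of -0.53 ± 0.18 was called at an adjusted p of 0.0344. The call was lost without replicate 2 or 3 of HSC alone (adjusted p = 0.0517 and 0.153), without replicate 1 or 3 of co-cultured HSC (0.0707 and 0.137), with the organoid share as a covariate (0.117) and with only these 6 libraries in the fit (0.067). Il6st had 409, 585 and 350.2 CPM in co-cultured HSC and 429, 411 and 556 CPM in HSC alone. These libraries overlapped, and Il6st had a fitted change of -0.02 ± 0.19 (adjusted p = 0.968).

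Il6ra had 1.28, 4 and 2.2 CPM in co-cultured HSC and 4.36, 3.85 and 6.12 CPM in HSC alone, with overlap and a fitted change of -0.86 ± 0.39 (adjusted p = 0.107). It was called without replicate 2 of co-cultured HSC, at -1.37 (adjusted p = 0.0238). The organoid share multiplied by the ICO level reached 84%, 14.5% and 73.2% of Il6ra in the 3 co-cultured libraries.

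Of the signalling genes, Stat3 had 285, 354 and 321 CPM in co-cultured HSC, against 215, 185 and 264 CPM in HSC alone. The groups did not overlap, and the fitted change was 0.57 ± 0.14 (log2, adjusted p = 0.00651), which was lost with only these 6 libraries in the fit (adjusted p = 0.0827). Socs3 had 67.9, 131 and 142 CPM in co-cultured HSC and 111, 117 and 154 CPM in HSC alone, with overlap and a fitted change of -0.13 ± 0.23 (adjusted p = 0.717). The organoid share multiplied by the ICO level was 77.4%, 21.5% and 55.4% of Socs3 in co-cultured HSC and 35.1%, 13.5% and 2.59% in HSC alone. Macrophage transcripts also differed between these 2 groups, at 126 to 199 CPM in co-cultured HSC and 2425 to 3334 CPM in HSC alone, and 10 and 11 of the 14 markers averaged at least 1 CPM. The Kupffer cell genes Clec4f and Timd4 were at 0 in all 3 co-cultured libraries, and the part of macrophage RNA in these differences was not tested.

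The organoids were then compared between co-culture and culture alone. Osmr and Socs3 were higher in co-cultured ICO and Il11 was lower. Of the 9 genes tested, 2 were higher and 1 lower, against 16.6% of 13726 genes called in either direction (8.59% higher and 7.96% lower). The median fitted change was 0.09 over the 9 genes and 0 over all genes tested.

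Osmr had 106, 80.8 and 95 CPM in co-cultured ICO, against 52.6, 64.2 and 61.7 CPM in ICO alone. All co-cultured libraries lay above all libraries of ICO alone, with a fitted change of 0.65 ± 0.11 (log2, adjusted p = 0.000514). Socs3, the feedback inhibitor, had 197, 184 and 184 CPM in co-cultured ICO, against 129, 126 and 106 CPM in ICO alone. These groups were separate as well, with a fitted change of 0.63 ± 0.09 (adjusted p = 0.000121). Both calls were lost when all 18 libraries entered 1 fit, at adjusted p of 0.0838 for Osmr and 0.0837 for Socs3, with fitted changes of 0.68 and 0.66.

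Il11 had 1.59, 1.38 and 2.16 CPM in co-cultured ICO, against 6.32, 3.6 and 2.45 CPM in ICO alone. The lowest library of ICO alone lay just above the highest co-cultured one. The fitted change of -1.28 ± 0.4 was called at an adjusted p of 0.0334, and the call was lost without replicate 1 or 2 of ICO alone (adjusted p = 0.28 and 0.0521), without replicate 1 or 2 of co-cultured ICO (0.102 and 0.107) and with all 18 libraries in 1 fit (0.0971). Il6 was not tested here. Lif, Lifr, Il6st, Il6ra, Il11ra1 and Stat3 did not pass the test, with fitted changes between -0.34 and 1.14. Of these, Il6ra was the furthest from 0, with 4.05, 3.77 and 3.73 CPM in co-cultured ICO and 0.356, 3.11 and 1.76 CPM in ICO alone (1.14 ± 0.49, adjusted p = 0.132), and without replicate 2 of ICO alone it was called at 1.87 (adjusted p = 0.0286). Il6st was called without replicate 2 of co-cultured ICO, at 0.32 (adjusted p = 0.0231).

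The co-culture effects in HSC and in ICO differed for 3 genes when the difference itself was tested. Of the 10 genes, 2 had a higher and 1 a lower effect in HSC than in ICO, against 17.2% of 16233 genes called (9.08% higher and 8.08% lower). The effect was higher in HSC by 8.27 ± 0.65 for Il11 (log2, adjusted p = 2.5e-05) and by 2.15 ± 0.48 for Lif (adjusted p = 0.0093), and it was lower by 1.38 for Il11ra1, with a coefficient of -1.38 ± 0.24 (adjusted p = 0.00226). Without replicate 1 of HSC alone the difference for Lif was 2.82 (adjusted p = 0.000132). The difference was not called for Osmr (0.86 ± 0.32, adjusted p = 0.0839), Socs3 (-0.85 ± 0.3, adjusted p = 0.0679) or Il6ra (-2.09 ± 0.8, adjusted p = 0.0936). Osmr was called without replicate 3 of HSC alone (1.15, adjusted p = 0.0132) and without replicate 3 of co-cultured HSC (1.02, 0.0453), Socs3 without replicate 3 of co-cultured HSC (-1.03, 0.0354) and Il6ra without replicate 2 of ICO alone (-2.8, 0.0419). Osmr was also called with the organoid share subtracted (1.11, 0.0231). With all 18 libraries in 1 fit, Osmr (0.9, 0.0366) and Il6ra (-2.03, 0.0484) were called. DESeq2 called Socs3 (-0.88, 0.0465) and Il6ra (-2.12, 0.0478). For Il6 the coefficient had an SE of 4.81 with 3 and 0 counts in the organoid groups, and it was not called (adjusted p = 0.842).

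**Figure D3:**
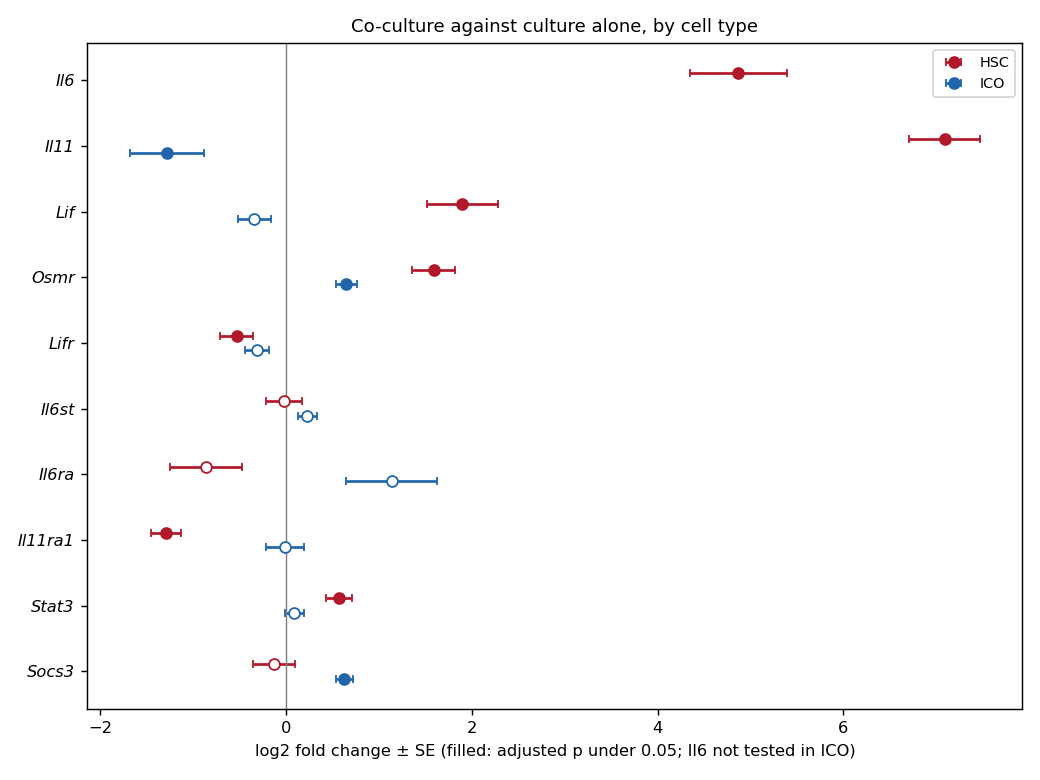
Fitted log2 fold change ± SE in co-culture against culture alone, in HSC (red) and in ICO (blue). Filled points passed an adjusted p of 0.05. Il11, Il6, Lif and Osmr lie to the right in HSC, while in ICO only Osmr and Socs3 are filled on the right and Il11 is filled on the left.

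To set ligand source against receptor holder, HSC and ICO sorted from the same kind of gel were compared. Co-cultured HSC and co-cultured ICO of the same replicate number share a code in their titles, which may mean a shared gel. The fit did not pair them. In co-culture, Il6 and Il11 were higher in HSC, Lif did not pass the test, and 4 of the 5 receptor genes were higher in HSC. Il6 passed the low-count filter of this fit only through co-cultured HSC, so a difference was built into its selection and it is left out of the count. Of the other 9 genes, 6 were higher and 1 lower in co-cultured HSC than in co-cultured ICO, against 39.6% of 16233 genes called (24% higher and 15.6% lower).

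Il6 counts summed to 295 in co-cultured HSC and to 3 in co-cultured ICO. Corrected for library size the ratio was 120, with a 95% interval of 40.7 to 585 that covers counting error only. Il11 had 108, 249 and 189.8 CPM in co-cultured HSC, against 1.59, 1.38 and 2.16 CPM in co-cultured ICO, a difference of 6.75 ± 0.47 (log2, adjusted p = 1.46e-06). Lif had 13.7, 21.5 and 19.7 CPM in co-cultured HSC and 15.1, 21.7 and 17.2 CPM in co-cultured ICO. These libraries overlapped fully, with a difference of 0.07 ± 0.33 (adjusted p = 0.89).

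The receptor genes Lifr, Il11ra1, Il6st and Osmr were higher in co-cultured HSC than in co-cultured ICO, by 2.93 ± 0.17, 2.44 ± 0.18, 2.2 ± 0.18 and 1.65 ± 0.23 (log2), and no libraries overlapped. All 4 were called under the 14 alternatives. Every co-cultured ICO library also had reads of all 5 receptor genes. Lifr had 25.7, 21.9 and 26.8 CPM and Il6st had 105, 84.7 and 109.8 CPM in co-cultured ICO. Il11ra1 lay between 11.1 and 11.4 CPM there. Il6ra, the IL-6 binding subunit, was not called between the cell types (-0.55 ± 0.56, adjusted p = 0.454).

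Socs3 was lower in co-cultured HSC, with 67.9, 131 and 142 CPM, against 197, 184 and 184 CPM in co-cultured ICO. The groups did not overlap, and the difference was -0.69 ± 0.21 (adjusted p = 0.0211). That call was lost without replicate 1 of co-cultured ICO (-0.66, adjusted p = 0.0604) and with the organoid share subtracted, where the difference was larger (-1.17, adjusted p = 0.0684). Stat3 was higher in co-cultured HSC by 0.45 ± 0.14 (adjusted p = 0.0189), a call lost without replicate 2 of co-cultured HSC (0.0751), without replicate 1 or 2 of co-cultured ICO (0.0804 and 0.0899) and without the low-count filter (0.105).

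When each cell type grew alone, Il11 and Lif were lower in HSC than in ICO. Il11 had 2.24, 0.88 and 1.03 CPM in HSC alone and 6.32, 3.6 and 2.45 CPM in ICO alone, a difference of -1.52 ± 0.47 (log2, adjusted p = 0.0183). This call was lost without replicate 2 or 3 of HSC alone (adjusted p = 0.0677 and 0.0609) or replicate 1 of ICO alone (0.0794), and the difference was -2.24 with the organoid share subtracted. Lif had 8.89, 3.42 and 3.03 CPM in HSC alone, against 19.3, 20.3 and 28.2 CPM in ICO alone. Every ICO library lay above every library of HSC alone, with a difference of -2.08 ± 0.35 (adjusted p = 0.000355), or -2.76 without replicate 1 of HSC alone and -3.71 with the organoid share subtracted. The value of -3.71 rests on small remainders of Lif in HSC alone. Il6 had 12 counts in HSC alone against 0 in ICO alone. With 3 counts taken for ICO alone and the 12 taken as exact, it would be 3.24-fold higher in HSC alone.

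Among the receptors, Il11ra1, Lifr and Il6st were higher in HSC alone than in ICO alone by 3.82 ± 0.19, 3.24 ± 0.17 and 2.54 ± 0.19 (log2). Osmr was higher by 0.79 ± 0.23 (adjusted p = 0.0104), although its libraries overlapped, and this call was lost without replicate 3 of HSC alone (0.0508). Il6ra was higher by 1.53 ± 0.58 (adjusted p = 0.0367), a call lost in each fit that left out a library (adjusted p between 0.0504 and 0.1) except that without replicate 2 of ICO alone, where the difference was 2.24. Stat3 and Socs3 were not called, at 0.06 ± 0.14 and 0.16 ± 0.21. Il6, which entered this fit only through co-cultured HSC, is again left out of the count. Of the other 9 genes, 5 were higher and 2 lower in HSC alone, against 56.7% of 16233 genes called (30.9% higher and 25.8% lower).

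**Figure D4:**
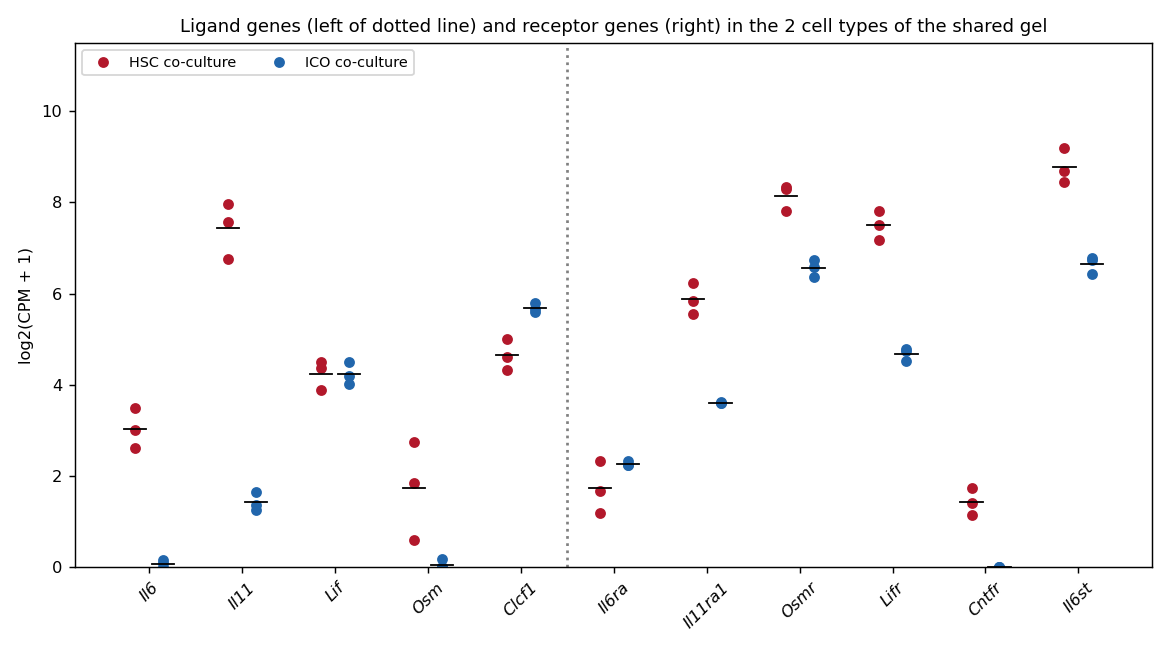
Levels of 5 ligand genes and 6 receptor genes in co-cultured HSC (red, left) and co-cultured ICO (blue, right) on a vertical axis of log2(CPM + 1). Points are libraries and lines are means of 3. Il6, Il11, Il11ra1, Osmr, Lifr and Il6st lie higher in HSC, Clcf1 lies higher in ICO, and Lif and Il6ra overlap.

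The family has further ligands and receptors. Clcf1, which encodes a cytokine of the family, had 23.4, 19.1 and 31 CPM in co-cultured HSC and 54.2, 47.5 and 49.8 CPM in co-cultured ICO. The organoid libraries were all higher, with a difference of -1 ± 0.25 (adjusted p = 0.00656). Under the 14 alternatives it lay between -1.82 and -0.84 and was always called. The co-cultured HSC libraries held organoid shares of 27.9%, 15% and 41.9%. How much of their Clcf1 came from organoid RNA was not tested. Clcf1 was not called between co-cultured HSC and HSC alone (0.44, adjusted p = 0.3), but it was called without replicate 1 of HSC alone (0.86, adjusted p = 0.0346). That replicate had an organoid share of 32.5%. Cntfr, the ciliary neurotrophic factor receptor, had 1.66, 2.35 and 1.21 CPM in co-cultured HSC and 0 counts in co-cultured ICO, so it was at least 31.3-fold higher in HSC.

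Osm, which encodes oncostatin M and is known as a product of myeloid cells, had 0.511, 5.68 and 2.62 CPM in co-cultured HSC and 2.2, 0.659 and 4.26 CPM in HSC alone. The libraries overlapped, and Osm had a fitted change of 0.36 (adjusted p = 0.789), while macrophage transcripts were at most 199 CPM in co-cultured HSC and at least 2425 CPM in HSC alone, and their part in the Osm level was not tested. Osm held 154 counts in co-cultured HSC and 2 counts in co-cultured ICO, a ratio of 94 with a 95% counting interval of 25.6 to 783. Il27ra, a receptor subunit that pairs with gp130, had 9.46, 20.9 and 14.9 CPM in co-cultured HSC, against 0.0569, 0.207 and 0.399 CPM in co-cultured ICO. The libraries did not overlap, and Il27ra passed the low-count filter only through HSC groups, so no test is given.

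Of the 9 other ligand genes, 7 were tested between co-cultured HSC and HSC alone, of which 2 were higher and none lower, among them the cardiotrophin gene Ctf1, where 17.3% of all genes tested were higher and 13.8% lower. It averaged 3.45 CPM in co-cultured HSC and 0.736 CPM in HSC alone, a change of 2.29 ± 0.59 (adjusted p = 0.01, and 0.0596 with only these libraries in the fit). None of the 3 other receptor genes tested was called. Of 10 transducers, 1 was higher and 3 were lower, against 31.1% of all genes called in either direction. Ptpn11 was the higher one (0.54 ± 0.16, adjusted p = 0.0178, and up to 0.0932 without replicate 1 of co-cultured HSC or with only these libraries in the fit), and Jak1 and Gab1 were among the lower ones. Gab1, an adaptor protein engaged by gp130 and by growth factor receptors, averaged 18.8 CPM in co-cultured HSC and 63 CPM in HSC alone (-1.7 ± 0.12, adjusted p = 3.33e-07).

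Among 8 feedback inhibitors and phosphatases, 1 was higher and 2 were lower, again against 31.1% of all genes. Ptpn2 was higher in co-cultured HSC (0.78 ± 0.12, adjusted p = 0.000286), while Socs2 was lower (-0.56 ± 0.12, adjusted p = 0.00252) and so was Ptpn6 (-1.31 ± 0.41, adjusted p = 0.0286). The Ptpn6 call was lost without replicate 1 or 2 of either group, with adjusted p up to 0.103. Of the sheddases that release soluble IL-6 receptor, Adam17 was higher (0.44 ± 0.12, adjusted p = 0.0162, and up to 0.106 in 3 alternatives, among them the fits without replicate 2 of either group) and Adam10 was not called.

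Of 25 genes listed as STAT3 targets, 8 were higher and 3 lower in co-cultured HSC than in HSC alone, against 17.3% of all genes higher and 13.8% lower, with a median change of 0.93 over the list and 0.03 over all genes tested. Organoid levels differed within the list, with Lcn2 at 2567 CPM and Timp1 at 19.6 CPM in co-cultured ICO. The part of organoid RNA in this count and median was not tested. Socs2 is on this list and on that of the feedback genes. Timp1, an inhibitor of matrix proteases, had 599.6, 909 and 679.7 CPM in co-cultured HSC, against 33.6, 9.1 and 24.2 CPM in HSC alone (5.07 ± 0.46, adjusted p = 1.55e-05). Steap4, a metalloreductase, averaged 219 CPM in co-cultured HSC and 1280.1 CPM in HSC alone (-2.51 ± 0.46, adjusted p = 0.00168). Lrg1, an acute phase glycoprotein, was called higher at 2.8 ± 0.77 (adjusted p = 0.0207), with 21, 22.1 and 79 CPM in co-cultured HSC and 9.75, 7.78 and 0.897 CPM in HSC alone. Its call was lost without replicate 3 of co-cultured HSC (1.88, adjusted p = 0.0749) and without replicate 2 of HSC alone (3.01, 0.0545). It was also lost with the organoid share subtracted (10.17, 0.0591). Lrg1 averaged 147 CPM in co-cultured ICO and 65.3 CPM in ICO alone. The share multiplied by the ICO level exceeded Lrg1 in replicate 1 of co-cultured HSC and in every library of HSC alone. Subtraction thus left no Lrg1 reads in HSC alone, and 10.17 does not measure a larger rise. Cebpd was lower (-1.4 ± 0.35, adjusted p = 0.0108), and it was not called with the organoid share subtracted (-1.96, adjusted p = 0.153), with the share as a covariate (-1.19, 0.0536) or with only these libraries in the fit (-1.5, 0.0558).

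In co-cultured ICO, 7 of 23 STAT3 targets tested were higher and 4 lower than in ICO alone, against 8.59% of all genes higher and 7.96% lower, with a median change of 0.18 over the list and 0 over all genes. Lrg1 had 133, 137 and 170.3 CPM in co-cultured ICO, against 63.6, 72.1 and 60.1 CPM in ICO alone (1.15 ± 0.11, adjusted p = 8.47e-07). Vegfa, the endothelial growth factor, had 33.6, 42.3 and 35.9 CPM, against 16.3, 16.5 and 17.5 CPM in ICO alone (1.14 ± 0.14, adjusted p = 2.15e-05). Neither pair of groups overlapped. The acute phase gene Saa3 and the IL-1 receptor antagonist gene Il1rn were lower, by fitted changes of -1.18 ± 0.18 and -0.99 ± 0.08 (adjusted p = 0.000238 and 4.02e-07). With all 18 libraries in 1 fit, Vegfa was still called (0.0127), and Lrg1, Saa3 and Il1rn were not (0.316, 0.299 and 0.437).

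Of the 8 feedback genes tested in ICO, Socs2 alone was called, against 16.6% of all genes. Socs2 is also on the list of STAT3 targets and is counted there too. It had 64.8, 78.2 and 66.8 CPM in co-cultured ICO, against 141, 106 and 142 CPM in ICO alone, and it was lower by a fitted change of -0.91 ± 0.12 (adjusted p = 4.25e-05). Its relative Socs3 was higher in the same libraries. Of the 3 other ligand genes tested in ICO, 2 were lower, against 7.96% of all genes, among them Clcf1 (-0.35 ± 0.1, adjusted p = 0.0234). The Clcf1 call was lost without replicate 2 or 3 of either ICO group and with all 18 libraries in 1 fit, with adjusted p up to 0.597.

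The later HSC groups were compared with day 0 to place the co-culture in the course of HSC culture. The 3 comparisons share the day 0 libraries. Of the 10 genes, 4 were higher and 5 lower in co-cultured HSC than at day 0, where 53.7% of 17020 genes were called (28.9% higher and 24.8% lower). In HSC alone 2 were higher and 6 lower, against 40.8% of genes called (19.3% higher and 21.5% lower). On plastic 4 were higher and 5 lower, against 58% of genes called (27.5% higher and 30.5% lower). Il11 and Lif, at 11.1 and 7.02 estimated counts over the day 0 libraries, passed the low-count filter only through later HSC groups. A difference from day 0 was thus built into their selection, and their changes against day 0 are a description. Both are among the genes counted as higher in each comparison. Il6 was higher than at day 0 in co-cultured HSC by 2.39 ± 0.44 and on plastic by 2.87 ± 0.44, and it was lower in HSC alone by a fitted change of -2.48 ± 0.54 (log2, adjusted p = 0.000414, 7.68e-05 and 0.00239). Day 0 libraries had 1.72, 1.57 and 1.1 CPM of Il6, below every co-cultured and plastic library and above every library of HSC alone.

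Il11 was higher than at day 0 by 9.44 ± 0.46 in co-cultured HSC, 2.35 ± 0.58 in HSC alone and 6.11 ± 0.46 on plastic. The day 0 libraries held 0.237, 0.229 and 0.325 CPM. With the organoid share subtracted, the change in Il11 in HSC alone was 1.73 (adjusted p = 0.05). Lif was higher than at day 0 by 6.77 ± 0.56, 4.87 ± 0.58 and 7.32 ± 0.56 in the same 3 groups. Day 0 libraries had 0.0782, 0.342 and 0.0687 CPM of Lif, and without replicate 2 of that group the 3 changes were 7.8, 5.93 and 8.39. The change in HSC alone was 4.22 without replicate 1 of HSC alone and 3.34 with the organoid share subtracted, which made up 82.7%, 86.8% and 24.7% of Lif there.

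Osmr was higher than at day 0 in co-cultured HSC (1.84 ± 0.23, adjusted p = 2.22e-05) and on plastic (2.02 ± 0.23, adjusted p = 7.98e-06), and it was not called in HSC alone (0.25 ± 0.23, adjusted p = 0.404). Lifr was at most 327 CPM in the later HSC libraries, against 945, 1056 and 932 CPM at day 0, and its fitted changes were -2.37 ± 0.18 in co-cultured HSC, -1.83 ± 0.18 in HSC alone and -2.93 ± 0.19 on plastic. Il6st changed by -1.25 ± 0.2, -1.24 ± 0.2 and -0.69 ± 0.19 in these groups. Il11ra1 fell to 46.3 to 74.6 CPM in co-cultured HSC, against 192 to 209.8 CPM at day 0 (-1.72 ± 0.16, adjusted p = 9.08e-07). Its changes were -0.43 ± 0.15 in HSC alone and -1.06 ± 0.15 on plastic (adjusted p = 0.0377 and 5.11e-05).

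The Il11ra1 call in HSC alone was lost without any 1 day 0 library (adjusted p = 0.0678, 0.0504 and 0.101), without replicate 1 or 2 of HSC alone (0.118 and 0.0625), and with the organoid share subtracted (0.418). Il6ra was lower in all 3 later groups, by fitted changes of -1.92 ± 0.39, -1.05 ± 0.37 and -1.87 ± 0.39. The Il6ra call in HSC alone (adjusted p = 0.0376) was lost without any 1 day 0 library (0.07, 0.104 and 0.0656) and without replicate 1 or 2 of HSC alone (0.0896 and 0.122). It was also lost with the organoid share subtracted (-0.86, adjusted p = 0.254) or as a covariate (-0.7, 0.232) and with all 18 libraries in 1 fit (0.077). In co-cultured HSC the Il6ra call was lost with the organoid share as a covariate (0.0797).

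Socs3 had 67.9, 131 and 142 CPM in co-cultured HSC, 111, 117 and 154 CPM in HSC alone and 121, 126 and 89 CPM on plastic, against 1320.2, 1243 and 1239 CPM at day 0. All later libraries lay far below the day 0 ones, with fitted changes of -3.43 ± 0.25, -3.3 ± 0.25 and -3.44 ± 0.25 (adjusted p = 1.52e-07, 3.91e-07 and 1.41e-07). Socs1, a second inhibitor of Janus kinases, averaged 4.17 CPM in co-cultured HSC, 5.64 in HSC alone and 3.87 on plastic, against 56.5 CPM at day 0. Stat3 was not called against day 0 in any of the 3 groups, with exceptions under 3 alternatives. It was lower in HSC alone without replicate 3 of that group (-0.46, adjusted p = 0.0156) and by DESeq2 (-0.33, 0.0413), and it was higher in co-cultured HSC with the organoid share subtracted (0.45, 0.0181). All 12 hepatocyte markers averaged at least 1 CPM at day 0, with Alb at 8523 to 8906 CPM, and at most 7 did in a later HSC group. The part of hepatocyte RNA in the day 0 levels of Socs3, Lifr and Il6ra was not tested.

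**Figure D5:**
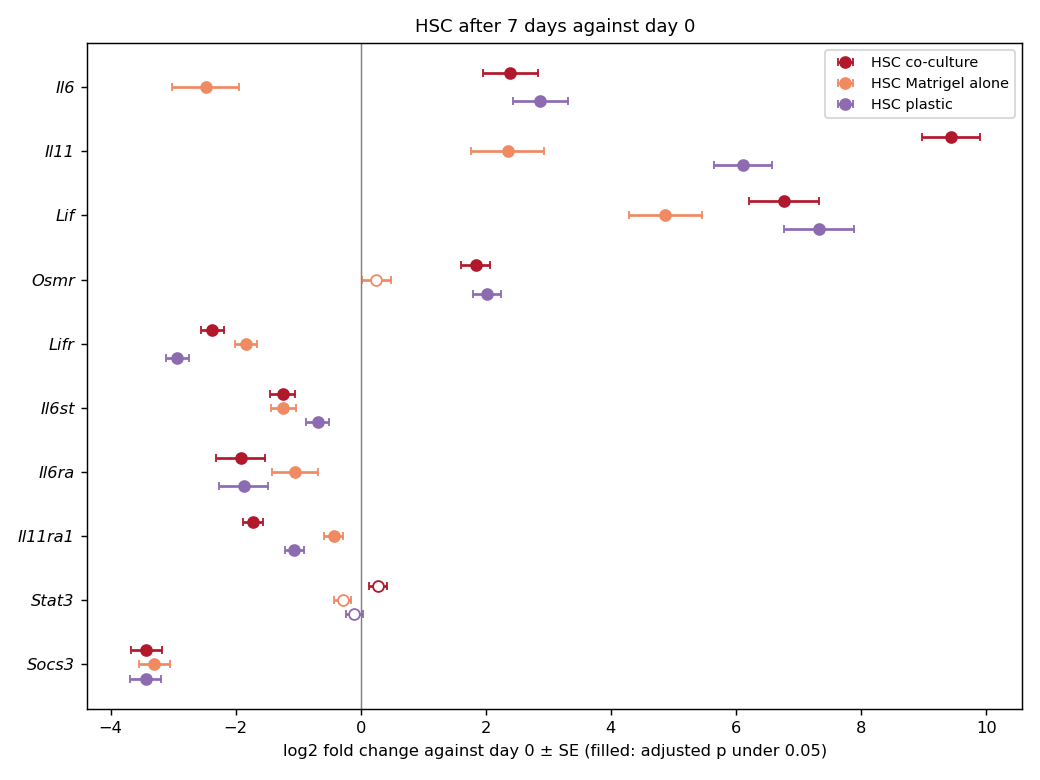
Fitted log2 fold change ± SE of the 10 genes against day 0 for co-cultured HSC (red), HSC alone in Matrigel (orange) and HSC on plastic (purple). Filled points passed an adjusted p of 0.05. Il6 lies right of 0 in co-culture and on plastic and left of 0 in HSC alone, and Socs3 lies near -3.4 in all 3 groups.

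Co-cultured HSC and plastic HSC, both higher in ligands than day 0 cells, were compared with each other. Il11 had 108, 249 and 189.8 CPM in co-cultured HSC, against 14.8, 20.5 and 18.4 CPM on plastic. The groups were far apart, with a change of 3.33 ± 0.3 (log2, adjusted p = 5.52e-06). Il6 had 10.2, 7.04 and 5.11 CPM in co-cultured HSC and 8.63, 13.1 and 9.1 CPM on plastic, with overlap and a change of -0.48 ± 0.4 (adjusted p = 0.353). Lif was 13.7 to 21.5 CPM in co-cultured HSC and 22.5 to 31.4 CPM on plastic, groups that did not overlap but did not pass the test (-0.55 ± 0.36, adjusted p = 0.235).

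Of the 10 genes, 3 were higher and 2 lower in co-cultured HSC than on plastic, against 42.5% of 17020 genes called (22.9% higher and 19.6% lower). Il11 was 1 of the 3. Lifr was higher by 0.56 ± 0.18 (adjusted p = 0.0205) and Stat3 by 0.39 ± 0.14 (adjusted p = 0.0368), while Il11ra1 was lower (-0.66 ± 0.15, adjusted p = 0.00372) and so was Il6st (-0.56 ± 0.19, adjusted p = 0.0313). Of these 4, every one was lost under some alternative. The Lifr call was lost without replicate 2 or 3 of plastic HSC or replicate 2 of co-cultured HSC (adjusted p between 0.0742 and 0.119). The Stat3 call was lost without any 1 plastic library and without replicate 2 or 3 of co-cultured HSC (adjusted p between 0.0696 and 0.172). The Il6st call was lost without replicate 1 of plastic HSC or replicate 1 or 3 of co-cultured HSC (between 0.0854 and 0.117). With the organoid share subtracted or as a covariate, Il6st was at -0.17 and -0.07 (adjusted p = 0.402 and 0.868) and Il11ra1 at -0.23 and -0.31 (0.222 and 0.305), and neither was called.

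HSC alone in Matrigel had lower ligand levels than plastic HSC. Of the 10 genes, 2 were higher and 5 lower, against 55% of 17020 genes called (29.9% higher and 25.2% lower). Il6 was lower by a fitted change of -5.35 ± 0.52, Il11 by -3.76 ± 0.35, Lif by -2.45 ± 0.38 and Osmr by -1.77 ± 0.23 (adjusted p = 3.03e-06, 3.75e-06, 0.000159 and 3.81e-05). The change in Lif was -3.11 without replicate 1 of HSC alone and -3.97 with the organoid share subtracted, which left small remainders of Lif in HSC alone. Lifr was higher in HSC alone by 1.09 ± 0.18 and Il11ra1 by 0.63 ± 0.15 (adjusted p = 0.000199 and 0.00363). Il6st was lower (-0.55 ± 0.19, adjusted p = 0.0283), a call lost without replicate 1 of plastic HSC (0.105) and without replicate 1 or 2 of HSC alone (0.0674 and 0.102). The Il6st call was also lost with the organoid share subtracted (-0.3, adjusted p = 0.106) or as a covariate (-0.25, 0.263). The replicate block (0.0528) and the filter of 10 CPM (0.069) removed it too. Stat3 was called only without replicate 3 of HSC alone, at -0.38 (adjusted p = 0.029).

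Genes with the most similar level pattern were ranked by Pearson's r of log2(CPM + 1) over the 18 libraries, among 11082 genes with a mean of at least 5 CPM. The libraries share cell type and organoid content, so r is a description. Among the 3 closest to Il11 were Ptprn (0.96) and Chst11 (0.956), and for Il6 the 3 closest genes were Tpm2 (0.971), Sulf1 (0.966) and Rai14 (0.961). Lif was closest to Cd320 (0.984), Dusp14 (0.982) and Psrc1 (0.982), and Osmr to Lox (0.97), Sfxn1 (0.956) and Srp14 (0.952). Socs3 was closest to Nrn1 (0.987), Ephx2 (0.986) and Lipc (0.977).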

How the data were processed

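Bulk RNA-seq libraries were made by Smart-seq2, with Nextera XT for the sequencing libraries, per the labels' protocols. The authors deposited estimated counts per gene as 1 table of 18 libraries. Per the submitters' processing notes the build was GRCm39, and the tools listed, with no role given, were DESeq2 1.36.0 and kallisto 0.46.1; the annotation is not given in the sources used here. No column lacked a sample and no gene name was blank.

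Estimated counts were rounded to whole numbers. Differences were tested with edgeR 4.0.16 (limma 3.58.1, R 4.3.3) by robust quasi-likelihood F tests, two-sided, with TMM scaling, the filterByExpr filter and Benjamini-Hochberg adjustment over all genes tested at 0.05. HSC groups were fitted together (12 libraries), ICO groups together (6 libraries), and HSC against ICO, with the difference of co-culture effects, in the 12 Matrigel libraries. The SE of a change is its size divided by the root of F. Levels are CPM with TMM factors over 18 libraries, computed here. Depth ranged from 6907479 to 22158674 counts. Counting intervals cover counting error only. For a group at 0 counts a floor of 3 counts was used, and the counts of the other group were taken as exact. Transcript lengths were not used, so levels are not compared between genes.

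The organoid share of a library is the median, over 16 genes with at least 100 CPM in every ICO library and under 5 CPM at day 0 and on plastic, of its level relative to the mean ICO level of the same culture.

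All 10 family genes are named. From 6 lists of related genes (57 genes), up to 2 called genes per direction and comparison are named by size of change, if either group averaged 1 CPM or more, and other ligands and receptors whatever their result. Some genes that this rule names are not reported here. Jak1 was named outside this rule, after its values were seen. The genes, lists and tests were chosen with earlier results of these data known. The tests recovered known changes in simulated data. That simulation took its means and spread from these libraries and modelled no admixed organoid or macrophage RNA. It therefore cannot decide how such RNA affects the results. Alternatives were RLE scaling, no filter, a filter of 10 CPM in 3 libraries, DESeq2 1.42.0, a replicate block, the organoid share subtracted or as a covariate, all 18 libraries or only those compared in a fit, and leaving out each library.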

Additional observations from a re-analysis of the deposited data

Results flagged for a closer look

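For 3 genes the effect of co-culture differed between HSC and ICO when that difference was tested with edgeR. The difference of effects (HSC minus ICO, log2 ± SE) was 8.27 ± 0.65 for Il11, whose level was higher in all 3 co-cultured HSC libraries than in all 3 of HSC alone and lower in all 3 co-cultured ICO libraries than in all 3 of ICO alone. It was 2.15 ± 0.48 for Lif, which was higher in all 3 co-cultured HSC libraries and overlapped between the ICO groups. It was -1.38 ± 0.24 for Il11ra1, which was lower in all 3 co-cultured HSC libraries and overlapped between the ICO groups. Adjusted p-values were 2.5e-05, 0.0093 and 0.00226, and all 3 were called in each of the 19 alternatives.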

How the results depend on the processing

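With 1 library left out, 600 results for the 10 genes stayed on their side of the threshold, 45 lost the call and 9 gained it. Under the other settings 761 stayed, 33 lost the call and 9 gained it. A change of sign was counted only for results called in the main or the alternative fit, so uncalled results that stayed may have changed sign. Among the genes of the 6 lists, 2290 stayed, 128 lost the call, 19 gained it and 2 reversed. Both reversals were Lcn2 with the organoid share subtracted (-6.39 in HSC alone against day 0 and -8.28 against plastic, both not called). Subtraction leaves no reads where the organoid part exceeds the level, and Lcn2 averaged 1549 CPM in ICO alone and 203 CPM in HSC alone. The cause was not tested for any of these changes.

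With at least 10 CPM required in 3 libraries, the members (the 10 family genes) called lower were 3 in HSC alone against day 0, 3 against plastic, and 0 in co-cultured ICO against ICO alone, where fewer members were tested. Adding the replicate block left 1 member lower in co-cultured HSC against HSC alone, 1 against plastic and 0 in ICO. Same-number correlations of deviations ran from -0.441 to 0.11, and with 3 libraries per group they cannot decide whether replicate numbers pair the libraries. Co-cultured HSC and co-cultured ICO of the same replicate number share a code in their titles and may come from the same gel. The block changed 3 of 40 counts by more than 1.5 times or to 0. Smaller changes of the other counts are not reported here. Of the results for single genes, called or not, 261 stayed on their side of the threshold with the block, 9 lost the call and 1 gained it.

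With the organoid share subtracted, 0 members were lower in co-cultured HSC against plastic and 0 against co-cultured ICO. With the share as a covariate, co-cultured HSC had 1 member lower against HSC alone and 0 against plastic, and 2767 genes higher and 2678 lower against day 0 (main 4917 and 4223), and 2042 higher and 1898 lower against plastic (main 3901 and 3338). With only the libraries compared, co-cultured HSC against HSC alone gave 1605 genes higher (main 2949) and 1 member lower. With all 18 libraries in 1 fit, ICO had 308 genes higher and 238 lower (main 1179 and 1093), with 0 members in either direction, and 2 members were lower in the difference of effects, against 3 by DESeq2 and 1 as reported.

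Leaving out 1 library gave 1 to 3 members lower in co-cultured HSC against HSC alone, 1 to 3 higher and 1 to 2 lower against plastic, and 0 to 1 lower against co-cultured ICO, with 1477 to 2701 genes lower there. It gave 1 to 2 members lower for HSC alone against ICO alone. In ICO it gave 763 to 1005 genes higher, 664 to 966 lower and 0 to 1 members lower. The difference of effects had 982 to 2308 genes higher and 1 to 2 members lower.

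Of 60 group means, 14 moved by more than the replicate SD with total counts and 1 with RLE factors. Depth limits Il6 in organoids (3 and 0 counts), Lif at day 0 (7.02 estimated counts) and Il6ra (below 12 CPM in every library). Groups of 3 against 3 libraries cannot reach an exact permutation p below 0.1.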
